A study of Zea mays with 24 samples.

Results

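The maize genes SHR1 (Zm00001d021973), SHR2 (Zm00001d006721) and SHR2h (Zm00001d029607) are members of the SHORT-ROOT group, and their transcripts were followed across the tissues of the maize (Zea mays) root tip. The genes were taken by identifier, 3 of the 39510 gene identifiers in the deposited table, and all 3 were among the 25555 genes with enough signal to be tested. The deposited table gives no coordinates or descriptions for them, and the names used here came with the choice of the genes.

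SHORT-ROOT is a plant transcription factor of the GRAS family. In Arabidopsis its gene is transcribed in the stele, the central cylinder that holds the vascular tissue, and the protein moves outward into the adjoining cell layer. There it acts with SCARECROW, another GRAS factor, in the divisions that form the ground tissue, which consists of the endodermis and the cortex, and in setting endodermis identity. The study from which these data come addresses how the ground tissue of monocot roots, with its many cortex layers, is set up.

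RNA was sequenced from 24 libraries, 3 per group, and all 8 groups came from plants grown at 26 °C under 12 h light and 12 h dark and taken 7 days after germination. Endodermis was sorted by flow cytometry as cells carrying a ZmSCR::RFP reporter, in which a maize SCARECROW promoter drives a red fluorescent protein, and the quiescent center as cells carrying a ZmWOX5::RFP reporter, with both lines in a B73/Hi-II background. Stele, cortex and epidermis were sorted from wild-type B73 protoplasts, root cells freed of their walls, after 15 min with the fluorescent dyes syto 40 and syto 81. The remaining libraries, also of wild-type B73, were of unsorted protoplasts of the meristem without root cap, dissected root cap, and intact root tips from which the cap had been removed. In Arabidopsis a SCARECROW promoter is active in the quiescent center as well as the endodermis, so the endodermis gate rests on a promoter whose reach in these plants was not tested. Reporter line, genetic background and sorting method cannot be told apart from tissue in the reporter-sorted groups, whereas stele, cortex and epidermis share line and method. Nothing in the labels ties replicates to separate plants or sorts, and all p-values here rest on a spread between libraries that may be technical. Cell type markers were not analysed here, since no table used here pairs these identifiers with names, and the labelled tissues therefore rest on the labels.

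Values are the authors' normalized values per gene, that is, gene counts divided by a factor for each library and not by gene length, so levels are compared between libraries and not between genes. Read numbers could be recovered from them, and the libraries held 21978670 to 50289026 reads. The 3 endodermis libraries were the deepest, at 40707719 to 50289026 reads, and the quiescent center libraries held 24991925 to 32501670. Counting error allows up to 3 reads behind a listed 0, a floor of 1.81 to 4.46 normalized units, and such limits cover counting error only. A gene was called changed when limma gave a Benjamini-Hochberg adjusted p below 0.05 over all 25555 genes and a log2 fold change of at least 1 in size, on the log2(value + 1) scale. Shares of tested genes called count both directions. In these sorted populations, fewer cells with a transcript and less of it per cell cannot be told apart.

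SHR1 was highest in the endodermis. Its normalized values there were 776, 572 and 570.0 in replicates 1 to 3, from 1095, 948 and 796 reads. Stele libraries held 126, 145 and 44.8, and quiescent center libraries held 127, 76.5 and 109.7. Every endodermis library lay above every library of the other 7 groups, the nearest being stele replicate 2. Such a complete separation from the other 21 libraries was seen in 753 of the tested genes, or 2.95%. Cortex libraries held 2.13, 2.00 and 32.4, and all 3 epidermis libraries were listed at 0. The SHR1 levels thus differed most between the endodermis and the outermost layer, with the stele and the quiescent center close to each other in between.

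Averaged by group, SHR1 stood at 639.5 ± 118 in the endodermis, 105 ± 53.3 in the stele, 104 ± 25.7 in the quiescent center and 12.2 ± 17.5 in the cortex (SD, n = 3). The endodermis held 74.2% of the sum of the 5 sorted tissue means. Against the mean of the other 4 sorted tissues, SHR1 rose in the endodermis by 5.30 on the log2 scale (SE 1.06, limma adjusted p = 0.00123), and in the epidermis it fell by 6.33 (SE 1.06, adjusted p = 0.000319). Because no epidermis library held a read, a ratio of geometric means against the floor of 3 reads per library is the better measure. By that measure SHR1 was at least 215-fold higher in the endodermis than in the epidermis, at least 31.7-fold higher in the stele and at least 34.7-fold higher in the quiescent center. Both calls held under every alternative tried, although the fitted difference in the epidermis was −3.44 with a pseudocount of 10, −9.67 with edgeR and −4.01 against unsorted protoplasts.

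**Figure D1:**
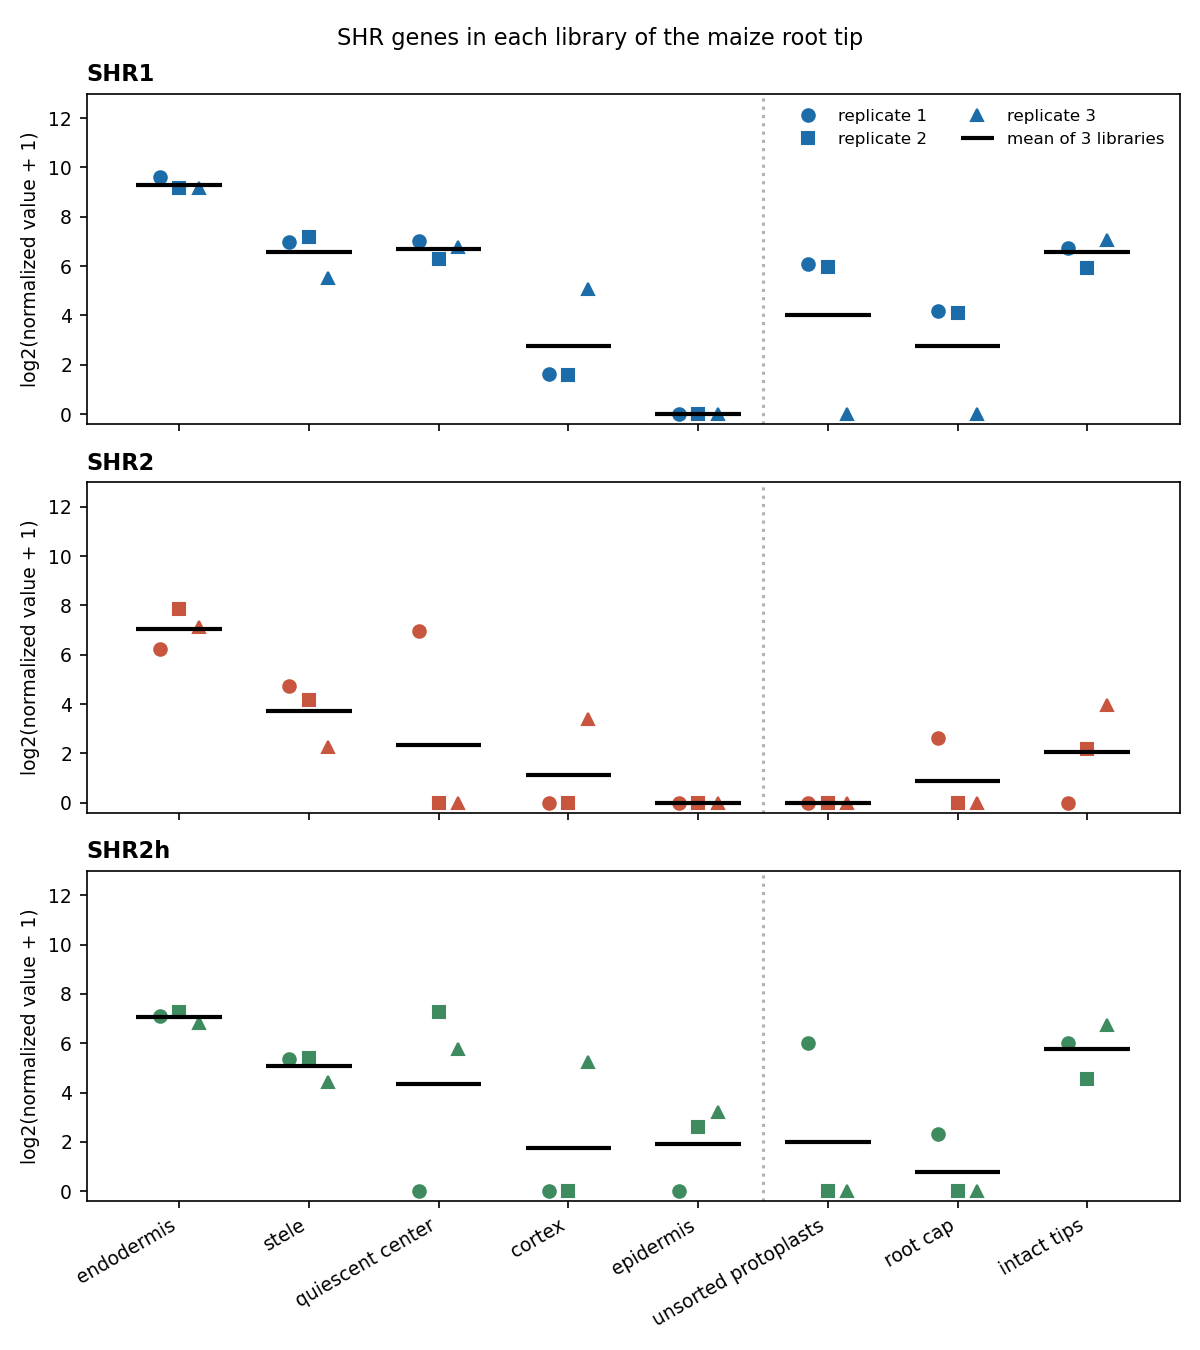
Normalized values of SHR1, SHR2 and SHR2h on the log2(value + 1) scale (vertical axis) in each library of the 8 groups (horizontal axis), with the marker shape giving the replicate and the line the mean of 3 libraries. SHR1 is highest in the 3 endodermis libraries and at 0 in the 3 epidermis libraries, and in the quiescent center SHR2 and SHR2h each show libraries at 0 beside libraries at endodermis level.

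SHR2 was also highest in the endodermis on average, but not in every library. Endodermis libraries held normalized values of 74.4, 228 and 137, stele libraries 25.5, 17.1 and 3.74, and quiescent center libraries 124, 0 and 0. The high quiescent center library lay within the endodermis range, while no stele library reached it, a gap not counted over all genes. In the cortex SHR2 was listed at 0 in replicates 1 and 2 and held 9.45, from 7 reads, in replicate 3. All 3 epidermis libraries and all 3 unsorted protoplast libraries were listed at 0. Of the 24 libraries, 13 were at 0 for SHR2.

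SHR2 averaged 147 ± 77.0 in the endodermis, 41.2 in the quiescent center, where 1 library carries the whole mean, and 15.4 ± 11.0 in the stele (SD, n = 3). It rose in the endodermis against the other 4 sorted tissues by 5.27 on the log2 scale (SE 1.15, limma adjusted p = 0.00258), a call that held under every alternative tried, at 3.14 with a pseudocount of 10 and 8.72 with DESeq2. The epidermis, with no SHR2 read, enters that DESeq2 contrast, so its size depends on how a group at 0 is fitted. Against the floor of 3 reads, SHR2 was at least 45.0-fold higher in the endodermis than in the epidermis and at least 41.5-fold higher than in unsorted protoplasts. In the epidermis SHR2 fell by 3.56 on the log2 scale (SE 1.15, adjusted p = 0.0419), close to the threshold. With the replicate number as a block the adjusted p was 0.0537. Leaving out a library ended the call for 8 of the 15 sorted libraries, with adjusted p of 0.140, 0.131 and 0.128 without epidermis replicates 1, 2 and 3, 0.0595 without cortex replicate 3, 0.0634 and 0.0596 without stele replicates 1 and 2, and 0.0595 and 0.0554 without endodermis replicates 2 and 3.

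SHR2h was highest in the endodermis on average as well, and it had reads in all stele and intact tip libraries. Its endodermis libraries held normalized values of 137, 154 and 113, its stele libraries 39.9, 41.7 and 20.5, and its quiescent center libraries 0, 152 and 52.9. Endodermis and stele libraries did not overlap, whereas the quiescent center covered the range from 0 to the endodermis level. The share of all genes with such a gap between endodermis and stele was not counted. Cortex libraries held 0, 0 and 36.5, and epidermis libraries 0, 5.05 and 8.17, the values above 0 from 5 and 8 reads. Intact tips held 63.6, 22.6 and 105, all below the lowest endodermis library, a gap that was not counted over all genes either.

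SHR2h averaged 135 ± 20.5 in the endodermis and 34.0 ± 11.7 in the stele (SD, n = 3), and the endodermis held 53.1% of the sum of the 5 sorted tissue means, compared with 71.0% for SHR2. Its difference between the endodermis and the other 4 sorted tissues was 3.80 on the log2 scale (SE 1.39, 95% interval 0.89 to 6.71) and missed the threshold, at an adjusted p of 0.0622. Leaving out cortex replicate 3 brought the adjusted p to 0.0263, with a difference of 4.24, and leaving out quiescent center replicate 2 brought it to 0.0310, with a difference of 4.17. In the epidermis the difference of SHR2h from the other 4 tissues was −2.62 (SE 1.39, adjusted p = 0.239).

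Thus 2 of the 3 genes were called in the endodermis, both higher. There 16.5% of all 25555 tested genes were called in either direction, 2241 genes of them higher. In the epidermis 2 of 3 were called, both lower, where 13.5% were called in either direction, 1771 genes of them lower. None of the 3 was called in the stele, the quiescent center or the cortex against the other 4 tissues, where 8.1%, 44.6% and 8.28% of tested genes were called. In the stele the log2 differences were 1.88 for SHR1, 1.09 for SHR2 and 1.30 for SHR2h, with limma adjusted p of 0.301, 0.635 and 0.641. In the quiescent center they were 2.03, −0.66 and 0.38, with adjusted p of 0.118, 0.656 and 0.835. Cortex differences were negative for all 3 genes, at −2.88, −2.15 and −2.86, with adjusted p of 0.0920, 0.270 and 0.215, and unadjusted p of 0.0138, 0.0780 and 0.0537. Without cortex replicate 3, the SHR1 difference in the cortex was −4.03 and its adjusted p 0.0421. In the quiescent center SHR1 passed the threshold in a fit on the sorted libraries alone (adjusted p = 0.0234) and on the recovered reads with edgeR (2.46, adjusted p = 0.0397) and DESeq2 (2.42, adjusted p = 0.0287). Without quiescent center replicate 1, the SHR2 difference in the quiescent center was −2.98 and its adjusted p 0.0184, whereas with all libraries DESeq2 turned its direction and called it higher (6.43, adjusted p = 0.00529) and edgeR gave 2.82 without a call. That DESeq2 contrast likewise includes the epidermis, where SHR2 had no read.

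**Figure D2:**
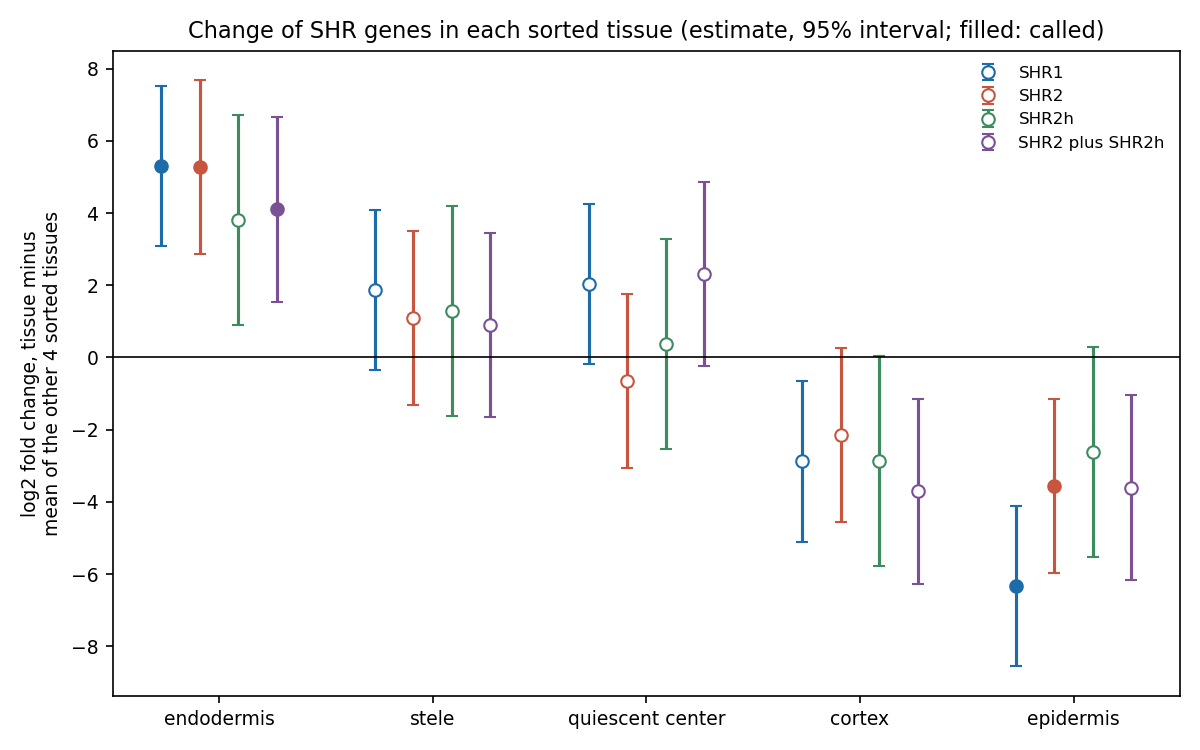
Log2 fold change of SHR1, SHR2, SHR2h and SHR2 plus SHR2h in each sorted tissue against the mean of the other 4 (vertical axis), with the limma estimate as a point and its 95% interval as a bar. Filled points passed the threshold, which SHR1, SHR2 and the sum did in the endodermis, and SHR1 and SHR2 did in the epidermis.

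Since stele, cortex and epidermis were sorted by dye from the same wild type, they can be compared within 1 line and method. In that comparison SHR1 was higher in the stele than in the mean of cortex and epidermis by 5.18 on the log2 scale (SE 1.17, limma adjusted p = 0.00476). There 12.4% of tested genes were called. SHR2 and SHR2h differed by 3.15 (SE 1.26) and 3.23 (SE 1.53), with adjusted p of 0.111 and 0.187. For the epidermis against stele and cortex, SHR1 fell by 4.66 (SE 1.17, adjusted p = 0.0139), and the adjusted p was 0.270 for SHR2 and 0.655 for SHR2h. Of tested genes, 8.94% were called in this comparison.

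Unsorted protoplasts, which come from the wild type, gave another background for the tissues. SHR1 was higher in the endodermis than in unsorted protoplasts by 5.30 on the log2 scale (SE 1.35, limma adjusted p = 0.0115), and SHR2 by 7.06 (SE 1.46, adjusted p = 0.00266). For SHR2h the difference was 5.06 (SE 1.76, adjusted p = 0.0585). All 3 unsorted protoplast libraries were at 0 for SHR2, so the size of its differences from them depends on the pseudocount. Against the floor of 3 reads, SHR2 was at least 41.5-fold higher in the endodermis and at least 3.68-fold higher in the stele. Unsorted protoplast replicate 3 was also at 0 for SHR1, and replicates 2 and 3 were at 0 for SHR2h. Of tested genes, 14.2% were called between endodermis and unsorted protoplasts. In the stele against unsorted protoplasts, the 3 genes differed by 2.56, 3.72 and 3.06, with adjusted p of 0.294, 0.152 and 0.347. There 4.59% of tested genes were called.

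Stele and endodermis are the neighbouring layers between which SHORT-ROOT moves in Arabidopsis. All 3 genes had lower values in the stele, without passing the threshold in the main fit. The stele minus endodermis difference of SHR1 was −2.74 on the log2 scale (95% interval −5.55 to 0.07, limma adjusted p = 0.367), that of SHR2 −3.35 (−6.39 to −0.30, adjusted p = 0.285) and that of SHR2h −2.01 (−5.69 to 1.67, adjusted p = 0.725). No stele library of any of the 3 genes reached the lowest endodermis library. How many of all genes show the same gap was not counted, so it cannot be read as particular to these genes. In this comparison 2.84% of tested genes were called. The main fit uses 1 spread per gene from all 8 groups, with SDs of 1.65, 1.79 and 2.16 for SHR1, SHR2 and SHR2h. Within stele and endodermis the SDs of log2 values were 0.913 and 0.255 for SHR1 and 1.30 and 0.801 for SHR2. For SHR2h they were 0.553 and 0.222. The missing calls therefore do not measure the spread within these tissues alone. A fit on the libraries of these tissues alone gave adjusted p of 0.0298 for SHR1, 0.0570 for SHR2 and 0.0415 for SHR2h with the same differences. A pseudocount of 10 gave 0.0330 for SHR1 and 0.0354 for SHR2. With weights per group SHR1 reached 0.0499 and SHR2 0.0185, and quantile normalization gave 0.0271 for SHR2, so that the calls depended on the scale and the fit.

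Against the cortex, SHR1 and SHR2 were called higher in the endodermis, by 6.54 (SE 1.35, limma adjusted p = 0.00211) and 5.93 (SE 1.46, adjusted p = 0.00862) on the log2 scale. Of tested genes, 12.7% were called there in either direction, 1460 genes of them higher. The SHR2 call was lost with edgeR (adjusted p = 0.182) and DESeq2 (adjusted p = 0.149) on the recovered reads. SHR2h reached 5.33 (SE 1.76, adjusted p = 0.0503), just short of the threshold. It passed with TMM factors (adjusted p = 0.0471), a pseudocount of 10 (0.0146), quantile normalization (0.0105) and weights per group (0.0126), and without cortex replicate 3 (7.07, adjusted p = 0.0128). Against the epidermis all 3 genes were called higher in the endodermis. There 21.3% of tested genes were called in either direction, 2834 genes of them higher. The differences were 9.31 for SHR1 (adjusted p = 3.58e-05), 7.06 for SHR2 (adjusted p = 0.00128) and 5.14 for SHR2h (adjusted p = 0.0402). The SHR2h call did not hold with edgeR (adjusted p = 0.140) or without any 1 of the 6 libraries, with adjusted p of 0.172, 0.0680 and 0.0516 without epidermis replicates 1, 2 and 3 and of 0.0869, 0.0988 and 0.0830 without endodermis replicates 1, 2 and 3. With the replicate block its adjusted p was 0.0530.

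Endodermis and quiescent center, the 2 reporter-sorted tissues, were compared next, with 37% of tested genes called. Only SHR2 was called, at 4.74 on the log2 scale (SE 1.46, limma adjusted p = 0.0139), while SHR1 differed by 2.62 (SE 1.35, adjusted p = 0.130) and SHR2h by 2.73 (SE 1.76, adjusted p = 0.230). For SHR1 a fit on these libraries alone gave an adjusted p of 0.00733, and a pseudocount of 10 gave 0.00612. The SHR2 value rests on the quiescent center libraries at 0. Without quiescent center replicate 2 or 3 the adjusted p was 0.0757 or 0.0747 with a difference of 3.58, and edgeR on the recovered reads gave 1.98 with an adjusted p of 0.470.

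The stele exceeded the epidermis in SHR1 by 6.57 (SE 1.35, limma adjusted p = 0.00204), where 14.9% of tested genes were called. For SHR2 and SHR2h the stele minus epidermis differences were 3.72 (adjusted p = 0.0937) and 3.13 (adjusted p = 0.269), and both passed in a fit on these libraries alone (adjusted p = 0.00944 and 0.0415) and with weights per group (0.00127 and 0.0191). From stele to cortex none of the 3 genes was called (SHR1 3.80, adjusted p = 0.120), with 4.52% of tested genes called and an unadjusted p of 0.0105 for SHR1. SHR1 passed there with a pseudocount of 10 (2.52, adjusted p = 0.0270), quantile normalization (4.31, adjusted p = 0.0272) and weights per group (adjusted p = 0.0301). Stele and quiescent center differed by −0.12 in SHR1 (95% interval −2.93 to 2.68), by 1.40 in SHR2 and by 0.73 in SHR2h, none called among 37.9% of tested genes. Without quiescent center replicate 1 the stele minus quiescent center difference of SHR2 was 3.72 (adjusted p = 0.0173).

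In the quiescent center SHR1 exceeded the epidermis by 6.69 (SE 1.35, limma adjusted p = 0.000739), where 32.5% of tested genes were called, and the cortex by 3.93 (SE 1.35, adjusted p = 0.0242), where 39.7% were called. The call against the cortex was lost without cortex replicate 1, cortex replicate 2 or quiescent center replicate 1, with adjusted p of 0.0963, 0.0874 and 0.0574. SHR2 and SHR2h were not called in these comparisons, but without quiescent center replicate 1 SHR2h differed by 4.76 from the cortex (adjusted p = 0.0302) and by 4.58 from the epidermis (adjusted p = 0.0439). From cortex to epidermis, where 1.02% of tested genes were called, the differences were 2.76 for SHR1, 1.13 for SHR2 and −0.19 for SHR2h, with no call.

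Cortex replicate 3 carried most of the cortex signal of these genes. It held 24 of the 28 cortex reads of SHR1, all 7 of SHR2 and all 27 of SHR2h. In the other cortex libraries SHR1 had 2 reads each, and SHR2 and SHR2h had none. Among all genes, tested or not, with a cortex mean within 1.5 times that of SHR2h, 1.29% were at 0 in 2 of the 3 cortex libraries. For means like that of SHR2 this share was 12.0%. A list of 218 genes high in the endodermis was read in the same libraries. Each of its genes had a mean endodermis value of at least 100 and more than 2 times the value of every stele, quiescent center and epidermis library in every endodermis library, and neither cortex libraries nor the SHR genes entered the choice. The median value of the list was 18.6, 16.0 and 66.8 in cortex replicates 1 to 3, and 18, 20 and 3 of its genes were at 0. Summed over the list, the values were 42406, 34638 and 82317 in these cortex libraries and 574171 to 824519 in the endodermis. Of the 218 genes, 159 (72.9%) were highest in cortex replicate 3 among the cortex libraries, beside 35.2% of all tested genes. The part of endodermis transcripts in the cortex values of the SHR genes was not tested.

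The same list had medians of 162, 185 and 128 in the stele libraries, next to 882, 1299 and 999 in the endodermis. SHR1 was likewise lowest in stele replicate 3, at 44.8. The choice of the list caps its stele values, and whether endodermis transcripts add to SHR values in the stele was not tested. The choice caps the quiescent center values of the list in the same way, so its median of 0 in those 3 libraries says nothing about SHR1 there.

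**Figure D3:**
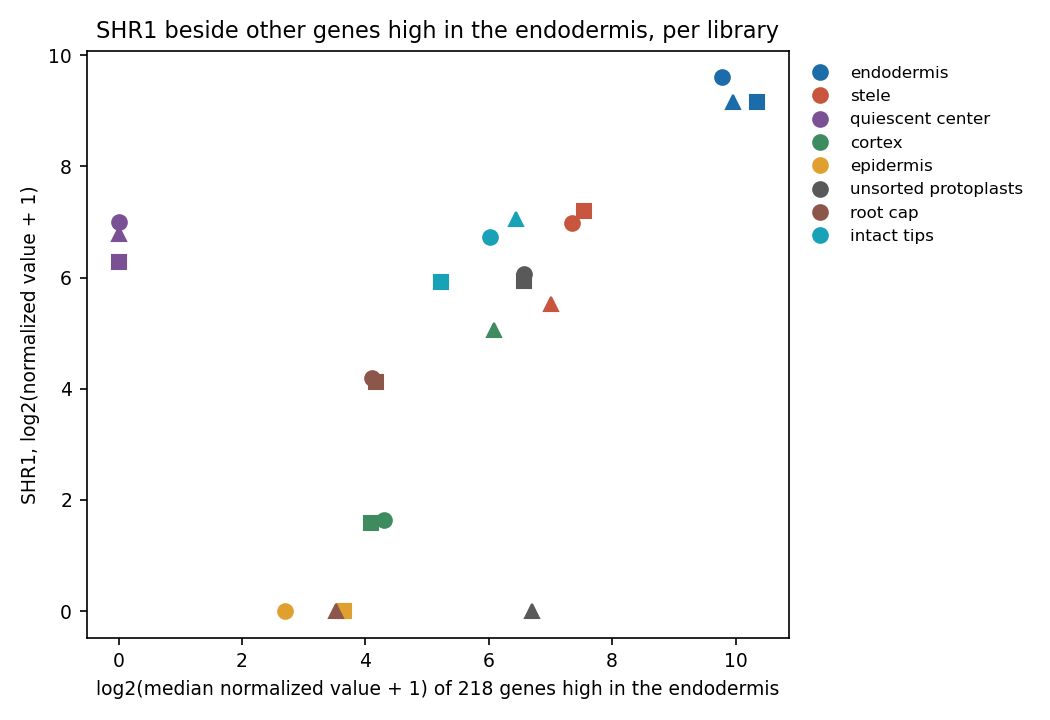
SHR1 in each library (vertical axis, log2(normalized value + 1)) against the median of 218 genes high in the endodermis in the same library (horizontal axis, log2(median value + 1)), with colour giving the group and circle, square and triangle giving replicates 1, 2 and 3. Cortex replicate 3 lies above the other cortex libraries on both axes, the list was chosen to be low in the quiescent center, stele and epidermis libraries, which limits their place on the horizontal axis, and unsorted protoplast replicate 3 has SHR1 at 0 with a list median of 104.

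The quiescent center libraries split between SHR2 and SHR2h. Replicate 1 held 175 reads of SHR2 and none of SHR2h, whereas replicates 2 and 3 held none of SHR2 and 223 and 54 of SHR2h. As a share of the reads of both genes, SHR2 thus made up 100% in replicate 1 (exact Clopper-Pearson 95% interval 97.9% to 100%), 0% in replicate 2 (up to 1.64%) and 0% in replicate 3 (up to 6.60%). In no endodermis library did either gene lack reads. SHR2 made up 35.2%, 59.7% and 54.9% of the reads in endodermis replicates 1 to 3, with intervals of 29.8% to 41.0%, 55.7% to 63.5% and 49.5% to 60.2%. The interval of replicate 1 lay below those of replicates 2 and 3, which overlapped each other. These intervals cover counting error only and take the divided, amplified reads as independent. In the stele SHR2 made up 39.0%, 29.1% and 15.4%, from 77, 55 and 26 reads. In intact tips it made up 0%, 13.6% and 12.2%, from 64, 22 and 139 reads, with upper limits of 5.60%, 34.9% and 18.9%.

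Zeros beside high values were frequent in the quiescent center. Among the 2138 genes with a quiescent center mean within 1.5 times that of SHR2, 27.7% were at 0 in 2 of the 3 libraries and 69.6% in at least 1. These and the following sets were drawn from all 39510 identifiers and not limited to tested genes. Among genes with a mean like that of SHR2h, 56.0% were at 0 in at least 1 library. For means like that of SHR1 this share was 41.5%, and SHR1 itself had reads in all 3 libraries. In the endodermis the shares with a 0 in at least 1 library were 0% to 0.66% for genes like the 3 members. Those endodermis sets stand at higher means, 640, 147 and 135 against 104, 41.2 and 68.4 in the quiescent center, and in deeper libraries. The alternation of SHR2 and SHR2h in the quiescent center therefore stands in libraries where such zeros are common. Kallisto estimates counts and can divide reads between genes of near-identical sequence, and how alike SHR2 and SHR2h are was not examined here, so their split is uncertain.

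**Figure D4:**
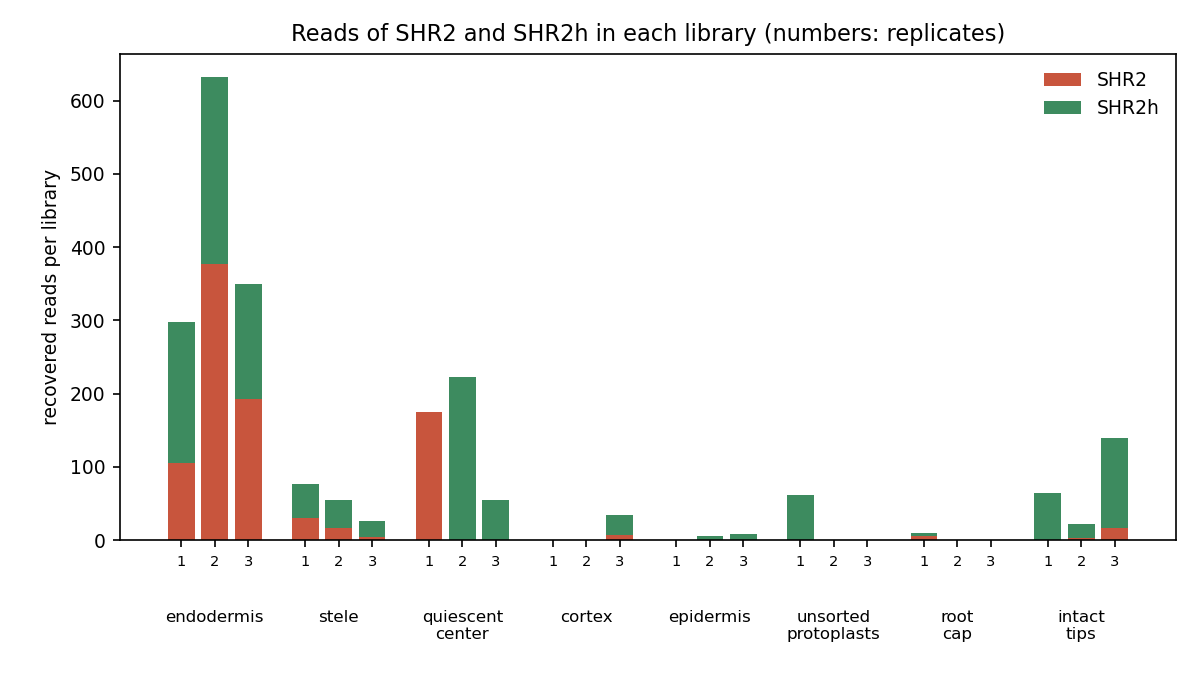
Recovered reads of SHR2 (lower part of each bar) and SHR2h (upper part) in each library (vertical axis), with libraries numbered by replicate within the 8 groups (horizontal axis). All 3 endodermis libraries hold both genes, whereas quiescent center replicate 1 holds 175 reads of SHR2 alone and replicates 2 and 3 hold SHR2h alone.

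The sum of SHR2 plus SHR2h, which does not depend on how reads were divided between them, was therefore also tested, a choice made after the values were seen. Its normalized values averaged 281 ± 89.2 in the endodermis, 109.7 ± 51.2 in the quiescent center, 49.5 ± 22.1 in the stele and 69.7 ± 46.9 in intact tips (SD, n = 3). The quiescent center libraries held 124, 152 and 52.9, all above 0, and none reached the lowest endodermis value of 211. The share of all genes with such a gap was not counted. SHR2 plus SHR2h was called higher in the endodermis than in the other 4 sorted tissues, by 4.10 on the log2 scale (SE 1.22, limma adjusted p = 0.0219). Leaving out endodermis replicate 1, 2 or 3 ended that call, with adjusted p of 0.0595, 0.106 and 0.0783. The difference in the epidermis was −3.60 (adjusted p = 0.0524), and without cortex replicate 1, cortex replicate 2 or quiescent center replicate 3 the adjusted p was 0.0411, 0.0393 and 0.0434. In the cortex it was −3.71 (adjusted p = 0.0584), and without cortex replicate 3 or quiescent center replicate 3 the adjusted p was 0.00924 and 0.0466. In the quiescent center against the other 4 tissues it was 2.30 (adjusted p = 0.123), and without cortex replicate 3 it was 2.77 (adjusted p = 0.0392).

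Between tissues, SHR2 plus SHR2h was called higher in the endodermis than in the cortex (6.24, limma adjusted p = 0.00905) and the epidermis (6.16, adjusted p = 0.00604), and higher in the quiescent center than in the cortex (4.81, adjusted p = 0.0172) and the epidermis (4.73, adjusted p = 0.0226). All 4 calls were lost with edgeR, with adjusted p of 0.198, 0.0559, 0.242 and 0.0953. Both cortex calls were lost without cortex replicate 1 (adjusted p = 0.0588 and 0.0892) or replicate 2 (0.0527 and 0.0792), and the last call without quiescent center replicate 1 or 2 or epidermis replicate 1 (0.0549, 0.0585 and 0.108). The sum did not differ past the threshold between endodermis and quiescent center (1.44, 95% interval −1.79 to 4.67, adjusted p = 0.487), in contrast to SHR2 counted by itself.

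Whether the 3 genes differed in their tissue pattern was tested on the log2 ratio of 2 members within each library. Over the 15 sorted libraries, 15 such contrasts were run with exact two-sided permutation tests, and none passed after Benjamini-Hochberg adjustment. The smallest p was for SHR1 over SHR2 in the epidermis, where the ratio was 2.77 lower on the log2 scale than in the other tissues (exact p = 0.0044, adjusted p = 0.0659). There both genes were listed at 0 in every library, so that the ratio follows from their levels elsewhere. SHR1 over SHR2h in the epidermis differed by −3.71 (exact p = 0.0132, adjusted p = 0.0989). In the endodermis SHR1 over SHR2h differed by 1.50 (exact p = 0.295, adjusted p = 0.846). Leaving out quiescent center replicate 1 brought the adjusted p of this contrast to 0.0412, with a difference of 2.07, and that of SHR1 over SHR2 in the epidermis also to 0.0412, with a difference of −3.02. With all 15 libraries, 0.0044 was the smallest p that this exact test could give. For a lone contrast out of 15 it adjusts to 0.0659, so a lone difference could not pass, whatever its size. The absence of a call therefore does not decide whether the genes differ in tissue pattern.

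Root cap and unsorted protoplasts were compared with intact tips. The cap, which covers the meristem, held SHR1 values of 17.3, 16.4 and 0, against 105, 59.5 and 132 in intact tips. Every cap library lay below every intact tip library, and SHR1 fell by 3.80 on the log2 scale (SE 1.35, limma adjusted p = 0.0332). The share of all genes that separate cap from tips in this way was not counted. SHR2h held 4.07, 0 and 0 in the cap, against 63.6, 22.6 and 105 in intact tips, and fell by 4.99 (SE 1.76, adjusted p = 0.0330). SHR2 held 5.08, 0 and 0 in the cap, against 0, 3.57 and 14.6 in intact tips, which overlapped (−1.18, adjusted p = 0.577). So 2 of 3 genes fell, where 32.6% of the 25555 tested genes were called in either direction, 3628 genes of them lower. For SHR2 plus SHR2h the difference was −4.78 (adjusted p = 0.0205).

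These cap calls lay close to the threshold. Without root cap replicate 3, where it was at 0, the SHR1 difference was −2.41 (limma adjusted p = 0.204), and without intact tips replicates 1, 2 and 3 its adjusted p was 0.0820, 0.0513 and 0.0898. For SHR2h the adjusted p was 0.0960 and 0.0969 without root cap replicates 2 and 3, and 0.0821 and 0.0985 without intact tips replicates 1 and 3. For SHR2 plus SHR2h it was 0.0779 and 0.0789 without the same cap libraries and 0.0546 and 0.0728 without the same tip libraries. With edgeR the adjusted p was 0.0748 for SHR1, 0.0870 for SHR2h and 0.0980 for the sum.

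Unsorted protoplasts held SHR1 values of 66.3, 60.7 and 0, against 105, 59.5 and 132 in intact tips, and the groups overlapped. SHR2h held 64.2, 0 and 0 in unsorted protoplasts, against 63.6, 22.6 and 105 in intact tips. SHR2 had no read in unsorted protoplasts and held 0, 3.57 and 14.6 in intact tips. None of the 3 genes was called, at −2.56, −2.05 and −3.76 on the log2 scale for SHR1, SHR2 and SHR2h (limma adjusted p = 0.199, 0.362 and 0.147), where 17.9% of tested genes were called. The unadjusted p of SHR2h was 0.0458, and without unsorted protoplasts replicate 1 its difference was −5.77 (adjusted p = 0.0289). For SHR2 plus SHR2h the difference was −3.89 (adjusted p = 0.0854), and −5.90 without that library (adjusted p = 0.00860). Among all genes, tested or not, with a protoplast mean within 1.5 times that of SHR1, 44.1% were at 0 in at least 1 protoplast library. For means like that of SHR2h 26.8% were at 0 in 2 of 3.

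Ordered by their means over all 8 groups, the SHR1 levels ran from the endodermis through stele, quiescent center, intact tips, unsorted protoplasts, cortex and root cap to the epidermis. Beyond the gap below the endodermis, each neighbour in this order overlapped with the next. For SHR2 the order was endodermis, quiescent center, stele, intact tips, cortex and root cap, with epidermis and unsorted protoplasts at 0, and for SHR2h it was endodermis, quiescent center, intact tips, stele, unsorted protoplasts, cortex, epidermis and root cap. In the orders of SHR2 and SHR2h every neighbour overlapped with the next. All 3 genes had the endodermis first, as did 3368 of the tested genes, or 13.2%.

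Pooled over the 8 groups, the 3 genes varied more between replicates than most genes did. The residual SD on the log2 scale was 1.70 for SHR1, 1.89 for SHR2 and 2.30 for SHR2h, beside a median of 0.94 over all tested genes. It was larger than in 80.1%, 86.9% and 96.6% of tested genes, which were not matched for level. The spread was uneven between groups. For SHR1 the SD of log2 values was 0.255 in the endodermis and 3.47 in unsorted protoplasts. From endodermis to quiescent center it went from 0.801 to 4.02 for SHR2 and from 0.222 to 3.83 for SHR2h. The groups with these large values held libraries at 0 beside libraries with reads. A tissue index, the mean shortfall of the other 4 sorted tissues below the highest on the log2 scale (0 for an even gene, 1 for a gene in 1 tissue), was 0.540 for SHR1, 0.601 for SHR2 and 0.386 for SHR2h, beside a median of 0.163.

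Across the 24 libraries, log2 values of SHR1 had a Pearson correlation of 0.705 with SHR2 and of 0.729 with SHR2h, while SHR2 and SHR2h had one of 0.459. The points share libraries, depth and the tissue groups, and the values describe these libraries only. Out of 23632 other genes, 30 followed SHR2h more closely than SHR1 did, and 123 followed SHR2 more closely than SHR1 did. SHR2 and SHR2h, alike in name, had 1762 genes closer to SHR2 and 1566 closer to SHR2h than they were to each other. These values include the quiescent center libraries, where the split of reads between SHR2 and SHR2h is uncertain.

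By the same measure, the genes closest to SHR1 were Zm00001d043943 (r = 0.891) and Zm00001d031005 (r = 0.872). Zm00001d031005 averaged 2760.1 ± 169.8 in the endodermis (SD, n = 3), 861 in the stele, 712 in the quiescent center and 59.4 in the epidermis. Zm00001d043943 averaged 353 ± 426 in the quiescent center, 350.2 ± 162 in the endodermis and 154 ± 72.4 in the stele (SD, n = 3), and all its epidermis libraries were at 0, as for SHR1. Closest to SHR2 were Zm00001d034630 (r = 0.896), with means of 4517 in the endodermis and 1678 in the stele, and Zm00001d012447 (r = 0.888), with 401 in the endodermis, 207 in the quiescent center and 181 in the stele. For SHR2h they were Zm00001d021613 (r = 0.873), with 207 in the endodermis and 99.0 in intact tips, and Zm00001d015059 (r = 0.856), which was highest in the quiescent center, at 124 against 30.2 in the endodermis. Over the 8 group means, Zm00001d015059 had an r of 0.567 with SHR2h, so its likeness was lower over the groups than over the libraries. No names are paired with these identifiers here.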

How the data were processed

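For 24 maize root tip libraries, small amounts of RNA were purified on columns and amplified, per the labels' protocols. Reads were handled with Trimmomatic, kallisto 0.43 and DESeq2, per the submitters' processing notes, and the genome build is not given in the sources used here. As deposited, the table has a signal per gene, namely counts that the authors divided by a size factor per library; 8 columns of the authors' group averages were not used. Within 0.01, 100% of the values above 0 came out as whole numbers of reads, with 1 read worth 0.604 to 1.49 units, which gave the recovered reads, 31133613 per library at the median. This test is weak in the libraries where 1 read is worth about 1. Replicate numbers are those of the titles, from which the descriptions of the third dye-sorted libraries differ.

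The values were fitted as log2(value + 1) with limma 3.58.1 in R 4.3.3, with a mean per group, all 24 libraries and a trended prior variance, for genes with a value of at least 10 in at least 3 libraries. Adjusted p-values are Benjamini-Hochberg values over all tested genes of each of 17 comparisons. Alternatives were a pseudocount of 10, no filter, other normalizations, other sets of libraries, weights per group, a replicate block, each library left out, and edgeR 4.0.16 and DESeq2 1.42.0 on the recovered reads. The fits were tested on simulated data. No pair of libraries of a group agreed within sampling noise. The genes, lists and tests were chosen with earlier results of these data known, and the sum of SHR2 and SHR2h and the list of genes high in the endodermis were added after the values were seen. Beside each SHR gene, the 2 genes with the highest Pearson correlation over the 24 libraries are named, out of those tested with a mean of at least 10. None of the 39510 identifiers matched the 49888 genes of the supplied RefSeq table, so genes known to act with SHORT-ROOT, cell type markers, coordinates and sequences were not analysed here.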

Additional observations from a re-analysis of the deposited data

How the results depend on the processing

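Depth limits values near 0, since a listed 0 may hold up to 3 reads, and the tests rest on 3 libraries a group. No pairing by replicate number was seen on average: over 84 pairs with the same number, deviations had a mean correlation of −0.0025, and 14 exceeded 0.1. The labels name no shared batch, and pairing among some of the tissues only was not tested. With the replicate block the SHR2 difference in the epidermis was −3.56 at an adjusted p of 0.0537 and left the called side. Of the results on the 3 genes, each tissue against the other sorted tissues and the comparisons with intact tips, 432 recomputed values kept direction and side of the threshold, and 54 did not. These totals include fits against unsorted protoplasts and against other dye-sorted tissues only, which are other contrasts. Most of the results were not called in the main fit, and those that stayed uncalled count among the 432. The totals therefore do not measure how firm the calls are. The causes of the changes below were not tested. The values below are log2 differences.

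In SHR1, the cortex difference passed the threshold with a pseudocount of 10 (−2.35), quantile normalization (−3.51) and a fit on the compared groups alone (−2.88), and leaving out a library gave −4.03 to −2.29. The quiescent center difference passed in the groups alone (2.03), with edgeR (2.46) and with DESeq2 (2.42), and the stele difference against other dye-sorted tissues (5.18). The root cap difference missed it in the groups alone (−3.80) and with edgeR (−3.26), and ran from −4.51 to −2.41 without each library.

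In SHR2, the epidermis difference missed the threshold without the filter and in the groups alone (both −3.56), with edgeR (−7.63), against unsorted protoplasts (0) and against other dye-sorted tissues (−2.42), and ran from −3.85 to −2.98 without each library. The quiescent center difference reversed and passed the threshold with DESeq2 (6.43, adjusted p = 0.00529), and was 0.57 with quantile normalization, 2.82 with edgeR, 2.32 against unsorted protoplasts, and −2.98 to 0.50 without each library. The cortex difference was 1.77 with DESeq2 and 1.13 against unsorted protoplasts, and the stele difference −0.11 with a pseudocount of 10 and −0.30 with quantile normalization. In the DESeq2 values of quiescent center and cortex, the epidermis, with no SHR2 read, is among the other tissues. The difference of unsorted protoplasts from intact tips passed with DESeq2 (−19.40), a value set by the zeros.

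In SHR2h, the endodermis difference passed the threshold with a pseudocount of 10 (2.46), quantile normalization (4.01), weights per group (3.80) and without the quiescent center (4.16), and ran from 3.26 to 4.24 without each library. The root cap difference missed it with edgeR (−5.47) and ran from −5.77 to −4.51, the quiescent center difference from −1.08 to 2.55 and that of unsorted protoplasts from −5.77 to −2.75.

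For SHR2 plus SHR2h, a pseudocount of 10 passed the cortex (−1.99) and epidermis (−2.42) differences, and edgeR lost that of the root cap (−4.51). Without each library the differences ran from 3.86 to 4.56 in the endodermis, 2.00 to 2.77 in the quiescent center, −5.56 to −2.78 in the cortex, −4.24 to −2.64 in the epidermis, −5.90 to −4.22 in the root cap and −5.90 to −2.88 in unsorted protoplasts.

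For the log2 ratios, SHR1 to SHR2h in the cortex was 0.42 without the quiescent center, and SHR2 to SHR2h in the epidermis 0.0802 with a pseudocount of 10. Without each library, SHR1 to SHR2 ran from −0.53 to 0.49 in the endodermis and −3.02 to −2.41 in the epidermis. SHR1 to SHR2h ran from 1.14 to 2.07 in the endodermis, −0.68 to 3.31 in the quiescent center and −0.40 to 0.58 in the cortex. SHR2 to SHR2h ran from −5.53 to 1.58 in the quiescent center and −0.76 to 0.53 in the stele.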
